A study of Arabidopsis thaliana with 3 samples.

Results

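APETALA1 (AP1, AT1G69120), CAULIFLOWER (CAL, AT1G26310), FRUITFULL (FUL, AT5G60910) and AGL79 (AT3G30260) form 1 clade of the Arabidopsis MIKC-type MADS-box genes, and binding of PISTILLATA (PI) and APETALA3 (AP3) at these loci was described from chromatin immunoprecipitation followed by sequencing (ChIP-seq). The genes were chosen by locus, 4 of 27444 nuclear protein-coding genes, and the rule itself used no measured value, although earlier results of these data were known when it was made. The libraries were PI-GFP in the AP1-GR ap1 cal background, AP3-GFP in the same background, and AP1-GR ap1 cal plants without a GFP-tagged factor as the negative control, with 1 library for each genotype. All plants were Landsberg erecta (Ler), grown at 20 degrees Celsius and about 4 weeks old. They received 10 µM dexamethasone, and flowers were taken 4 days later at about stage 4 to 5. Chromatin was precipitated with an anti-GFP antibody. Files of the PI-GFP and AP3-GFP libraries were used, and control values were not analysed here.

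MADS-domain proteins of the MIKC type bind DNA as dimers and assemble into tetramers. PI and AP3 form the B-class dimer, which specifies petals and stamens together with partners that include AP1 and the SEPALLATA proteins. AP1 and CAL act redundantly to turn a shoot meristem into a floral meristem, and AP1 is also needed for sepals and petals. FUL shares part of this meristem function and later patterns the fruit wall.

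The background bears directly on these loci. Every plant carried the ap1-1 and cal-1 mutations, so the endogenous AP1 and CAL genes were mutant in all libraries. AP1 function came from a fusion of AP1 to the hormone-binding domain of the glucocorticoid receptor, expressed from the 35S promoter, and dexamethasone activates the fusion protein. AP1 coding sequence was therefore present at the endogenous locus and in the transgene, and signal on exons cannot be assigned to either copy from these tables. Whole flowers were used, so fewer cells with a bound site and less binding per cell cannot be told apart.

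The deposited lists held 1852 PI peaks and 1524 AP3 peaks. Every peak carried a Poisson score, as the header of the lists names it, with a list median of 88.1 for PI and 58.6 for AP3. Gene tables gave the largest score in each of 5 windows, which were 2000 to 3000, 1000 to 2000 and 0 to 1000 bp upstream, inside the gene, and 0 to 1000 bp downstream. They listed 2544 genes for PI and 2146 for AP3. Scores are the authors' values with no stated scaling between libraries, the number of reads is unknown, and no statement below has a replicate check. The lists share the control library, so likeness between them is given as values side by side.

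AP1, CAL and FUL were listed for PI and for AP3, and AGL79 was listed for neither. Thus 3 of 4 genes were PI targets, where 8.69% of protein-coding genes were, and 3 of 4 were AP3 targets, where 7.26% were. Counting only the windows 0 to 1000 bp upstream and inside the gene left 3 of 4 for each factor, where 4.54% of protein-coding genes were listed for PI and 3.84% for AP3. AP1, CAL and FUL all had a score inside the gene for both factors, as 19.6% of PI targets and 23.8% of AP3 targets did. Inside is the window as filed, and it can hold peaks at the start of a gene, as at CAL. With 4 genes, these counts describe the clade and carry no test. For PI, AP1 had the highest score at 869.9, FUL followed at 528 and CAL at 272. For AP3, FUL was highest at 1062, AP1 followed at 219 and CAL at 64.7. The order of AP1 and FUL was therefore opposite in the libraries, and CAL was the lowest of the listed genes in both. Among listed genes, FUL stood at rank 193 for PI and rank 29 for AP3, and AP1 at rank 85 for PI and rank 278 for AP3. CAL stood at rank 422 for PI and rank 985 for AP3, close to the middle of the AP3 table.

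**Figure D1:**
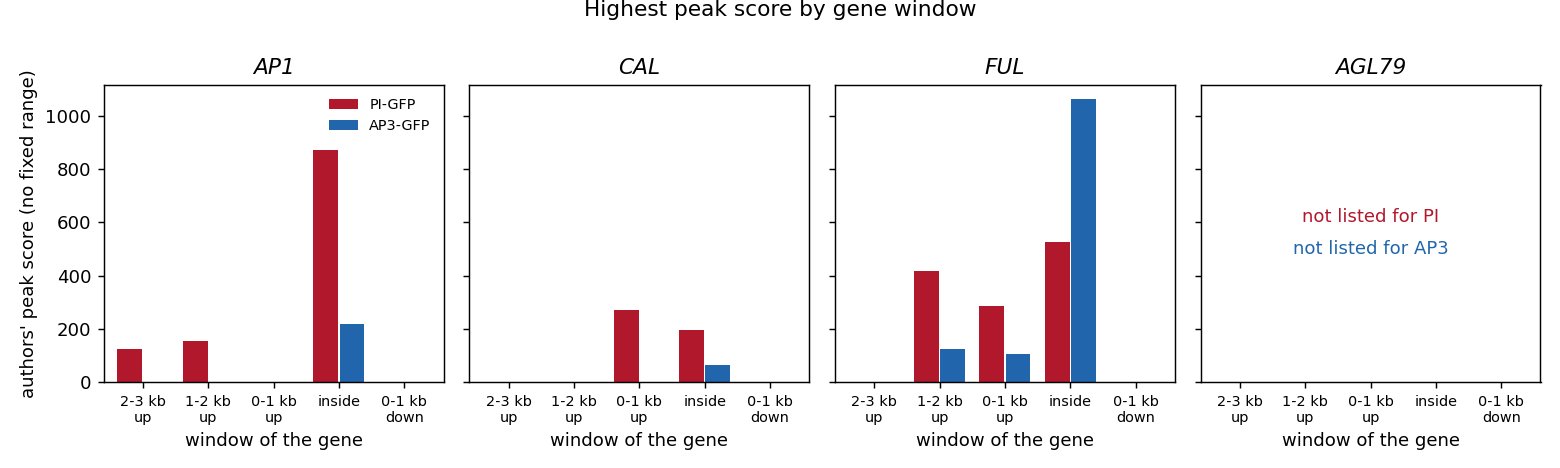
Highest peak score (y axis, the authors' score from 0) in the 5 windows of each gene (x axis, from far upstream to downstream), with PI-GFP bars left of AP3-GFP bars, 1 library each. AP3 exceeds PI in the window inside FUL (528 for PI and 1062 for AP3), and in no other window of these genes where both have a score. AGL79 has no bars.

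At AP1, PI was found at several positions and AP3 mainly at 1. The main PI peak, listed inside the gene, spanned chromosome 1, 25985680 to 25987021 on the TAIR10 build, with its maximum at 25986268. It was the 58th highest of the 1852 PI peaks. The AP3 peak, also listed inside the gene, spanned 25985895 to 25986914 and lay entirely within the PI peak, with its maximum at 25986223, 45 bp away. It was the 185th highest of 1524. Both peaks were broad for their lists. At 1342 bp the PI peak was the 15th widest, and at 1020 bp the AP3 peak was the 14th widest, against median widths of 335 and 257 bp.

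PI alone was listed farther upstream of AP1. A peak of score 154 lay 1000 to 2000 bp upstream at chromosome 1, 25987700 to 25988178, and a peak of score 126 lay 2000 to 3000 bp upstream at 25988788 to 25989105. Neither overlapped an AP3 peak. Both were also filed upstream of the tRNA gene AT1G69130. Their maxima lay 1669 and 2694 bp from the main PI maximum. If filing follows the maximum, the main PI maximum thus lay less than 1000 bp into AP1, toward its start. The peak lists held further sites that the gene tables do not show for AP1. PI had a peak of 157 with its maximum 1295 bp from the main one on the downstream side, and AP3 had a 78 bp wide peak of 30.6 with its maximum 2587 bp away from the main PI maximum on that side. Both are below the main peak of their library. Since the table shows only the largest score in a window and AP1 has 0 in the downstream window, each was either inside AP1 or more than 1000 bp beyond it. None of the 3 nearest protein-coding genes on either side of AP1 was listed for PI or AP3.

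At CAL, the tables seemed to place the proteins differently, but the peak positions coincided. The highest PI peak (272) was filed 0 to 1000 bp upstream and spanned chromosome 1, 9103199 to 9103954, with its maximum at 9103643. The highest AP3 peak (64.7) was filed inside the gene, yet its span of 9103341 to 9103775 lay within the PI peak and its maximum at 9103597 was 46 bp away. The different windows thus belong to overlapping peaks at the start of the gene. Such a split was uncommon. Among 986 genes whose highest PI and AP3 peaks had a position and overlapped, 36 (3.65%) were filed in different windows.

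The second CAL window of PI gave a further example. A PI peak of 198 inside the gene spanned 9101039 to 9101421, and AP3 had a narrow peak of 37.3 at 9101217 to 9101289, whose maximum was 36 bp from that of PI. The AP3 table does not show it for CAL, because the 64.7 peak fills the same window. Between these sites PI had a peak of 84.2 at 9102380 to 9102726, which no AP3 peak overlapped. PI therefore had 3 peaks from the start of CAL into the gene and AP3 had 2 of these positions. The gene-dense neighborhood meant that the start peak was also filed for AT1G26320 and the inner peak for AT1G26300. The PI peak of 84.2 was filed 2000 to 3000 bp upstream of both these neighbors. None of these peaks can therefore be assigned to CAL alone.

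At FUL, PI and AP3 shared 3 consecutive positions. The peak inside the gene spanned chromosome 5, 24505006 to 24505794 for PI and 24505200 to 24505741 for AP3, and the maxima at 24505483 and 24505492 were 9 bp apart. It was the 131st highest PI peak and the 15th highest AP3 peak. The peak 0 to 1000 bp upstream scored 285 for PI and 107 for AP3, with maxima 130 bp apart at 24506214 and 24506344. The peak 1000 to 2000 bp upstream scored 416 for PI and 125 for AP3, with maxima 12 bp apart at 24507232 and 24507244. FUL was thus the sole member with 3 scored windows in both tables, where 1.89% of PI targets and 1.77% of AP3 targets had 3 or more. AP1 had 3 for PI and 1 for AP3, and CAL had 2 for PI and 1 for AP3.

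Farther upstream of FUL, on the side of COBRA (COB, AT5G60920), PI peaks were high and AP3 peaks low. COB encodes a membrane-anchored protein needed for oriented cell expansion. A PI peak of 209.98 at chromosome 5, 24509344 to 24509689 faced an AP3 peak of 32.3, with maxima 3 bp apart. Neither score was shown for a window of any gene, and this PI peak is called unfiled below in that sense. A PI peak of 1468 at 24510100 to 24510852, the 25th highest of its list, overlapped an AP3 peak of 45.9, with maxima 143 bp apart. Both peaks of this last pair were filed 0 to 1000 bp downstream of COB. A window shows only its largest score, so the peaks of 209.98 and 32.3 would be hidden if they fell in that window. The maximum of the PI peak of 1468 lay 4891 bp from the one inside FUL, outside every FUL window.

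**Figure D2:**
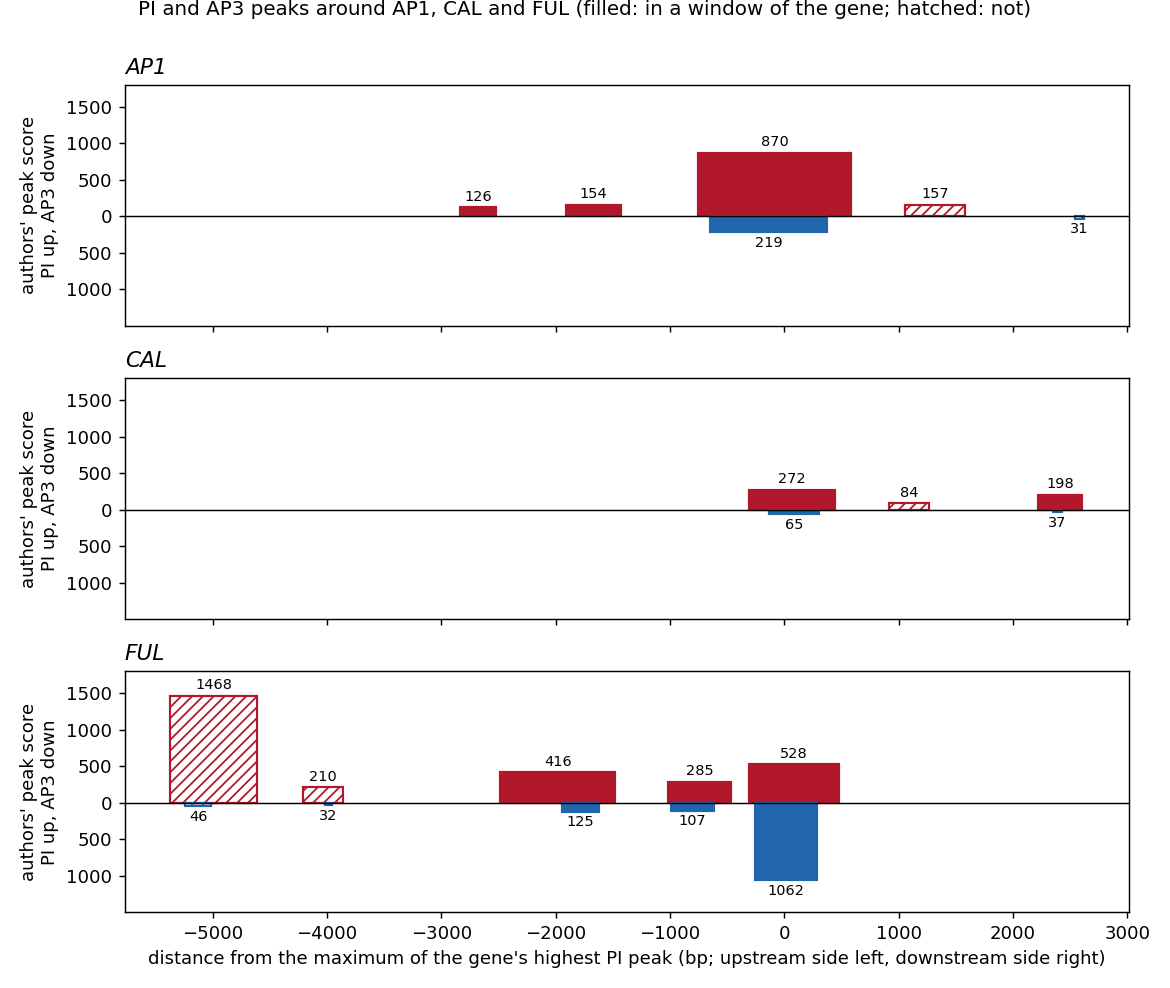
PI peaks (upward) and AP3 peaks (downward) around AP1, CAL and FUL. The x axis is the distance in bp from the maximum of the highest PI peak, with the upstream side of the gene to the left, bar width is peak width, and bar height is the authors' score from 0. Filled bars are scored in a window of the gene and hatched bars are not. By an overlap of at least 1 bp, AP3 has counterparts at all 5 PI positions around FUL, at 2 of 3 around CAL and at 1 of 4 around AP1. Some overlaps are small, such as 19.7% and 30.1% of the width of the 2 PI peaks farthest upstream of FUL.

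Of the 8 PI peaks scored in windows of AP1, CAL and FUL, 6 overlapped an AP3 peak, where 55.3% of all PI peaks did. The exceptions were the upstream peaks of AP1. All 5 AP3 peaks scored in their windows overlapped a PI peak, where 69.5% of all AP3 peaks did. These 5 are partners in the overlaps just counted, so the counts are not separate results. All 8 PI peaks scored above the list median of 88.1, whereas the shares cover peaks of every score. The definition of the score beyond its name is unknown, and so is how it grows with depth, so a ratio between the lists is not a ratio of binding and is given to order the pairs. For this, each PI peak was set against the highest-scoring AP3 peak it overlapped, which gave 1025 pairs with a median PI to AP3 score ratio of 1.60. The ratio was 3.97 at the main AP1 peak, 4.20 at the start of CAL and 5.30 inside CAL. At least 92.9% of all pairs had a ratio at or below each of these. Inside FUL the ratio was 0.497, and 2.63% of pairs had a ratio that low or lower. A ratio under 1 was found in 22.2% of pairs.

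The contrast was also seen within FUL itself. The ratio was 2.67 at the peak 0 to 1000 bp upstream and 3.34 at the peak 1000 to 2000 bp upstream, against 0.497 inside the gene. These differences have no replicate error, and the part of depth in them was not tested. The ratio was 6.49 at the unfiled peak and 32.0 at the COB peak, the second highest of all pairs. The rank inside FUL depended on the measure. When scores were replaced by percentile ranks within each list, 29.7% of pairs had a difference (PI minus AP3) that low or lower, and the main AP1 peak moved to 66.1%. The FUL upstream peaks, at 71.9% and 73.9%, still stood above the peak inside the gene.

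**Figure D3:**
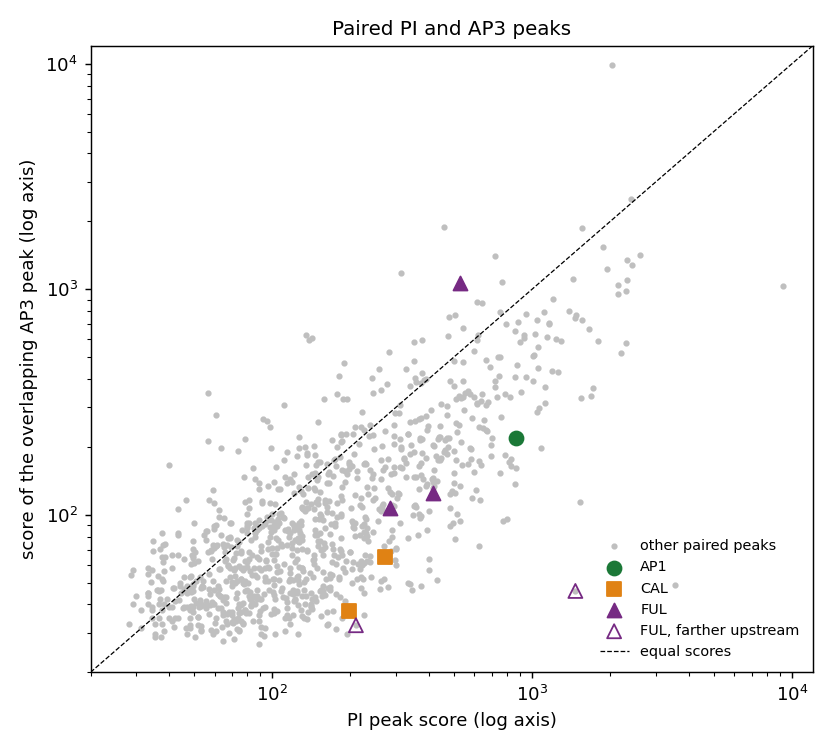
Score of each PI peak (x axis, log scale) and of the highest AP3 peak that it overlaps (y axis, log scale) for 1025 pairs. The dashed line marks equal scores. The peak inside FUL (528 for PI and 1062 for AP3) is the sole AP1, CAL or FUL point above the line, and the open triangle at a PI score of 1468 is the peak filed at COB.

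AGL79, a less studied gene of the clade, had no score in any window of either table. None of the 3 nearest protein-coding genes on either side of it was listed for PI or AP3. A locus without a listed peak can hold signal below the authors' threshold, and depth is unknown, so absence of binding cannot be concluded.

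Genes with a window pattern most like each member were sought across 10 values, the log2(score + 1) in 5 windows of 2 libraries, among 3132 listed genes, leaving out neighbors that share a member's peak. The gene closest to FUL was AGAMOUS (AG, AT4G18960), the C-class gene of stamens and carpels, at a Euclidean distance of 2.75. AG had scores in the same 3 windows for both proteins, of 637, 161 and 2298 for PI and 165, 51.6 and 577 for AP3, from upstream to inside. PI was above AP3 inside AG, unlike inside FUL. The next closest to FUL, at 7.58, was the class II KNOX gene KNAT4 (AT5G11060).

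The genes closest to CAL were AT3G51950 at a distance of 1.60, which the authors' annotation describes as RNA binding, and AT5G10150 at 2.37, annotated with a domain of unknown function. Each had PI scores 0 to 1000 bp upstream and inside, and an AP3 score inside alone. This likeness to CAL holds for windows as filed, not for peak positions. The AP3 peak filed inside CAL overlaps the upstream PI peak, whereas in both these genes the AP3 peak overlaps the inner PI peak. The inner scores were 158.11 for PI and 75.01 for AP3 at AT3G51950. At AT5G10150 they were 150.49 for PI and 258.41 for AP3, so AP3 was above PI, unlike at CAL. The genes closest to AP1 were less alike, with distances of 7.12 for the MYB-family gene AT5G58900 and 7.53 for the BELL homeobox gene BLH2 (AT4G36870). No other gene searched came nearer than this to the AP1 pattern of upstream and inner PI peaks with a single AP3 peak.

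Among the other 35 MIKC-type MADS-box genes, 23 (65.7%) were listed for PI and 18 (51.4%) for AP3, beside 3 of 4 in the AP1 clade for each factor. Of all protein-coding genes, 8.69% were listed for PI and 7.26% for AP3. Scores in the family are given as the highest of each gene, which can come from different peaks for PI and AP3. The median highest score of those listed was 288 for PI and 209.7 for AP3, against 87.7 for all PI targets and 58.2 for all AP3 targets. In the AG clade, AG scored 2298 for PI and 577 for AP3 at its highest peaks, and the fruit gene SHP2 scored 288 for PI and 123 for AP3. SHP1 and STK, also of carpels and ovules, were not listed. In the SEPALLATA clade, which encodes partners of the floral MADS proteins, SEP3 scored 2141 for PI and 1872 for AP3, SEP2 scored 542 for PI and 331 for AP3, SEP4 scored 90.6 for PI alone, and SEP1 was not listed.

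The highest scores of the family were those of the tagged genes themselves, 9217 for PI at PI and 9926 for AP3 at AP3. Each came from the library that carries the GFP fusion of that gene. Whether the fusion added copies of the bound sequence is not known here, so copy number and binding cannot be told apart. At the partner's gene PI scored 2038 (at AP3) and AP3 scored 1033 (at PI). Every score of the AP1 clade lay below these, except that FUL for AP3 (1062) was slightly above the AP3 score at PI. SOC1, a flowering promoter, scored 1199 for PI and 902 for AP3, and SVP, a repressor, scored 1051 for PI and 447 for AP3. The repressors AGL15 and AGL18 scored 1051 and 867 for PI, and 554 and 161 for AP3. AGL6 scored 370.2 for PI and 96.8 for AP3. With 3 or more scored windows in both tables, AG, SEP3 and SOC1 were the other MIKC-type genes like FUL.

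Less prominent family members completed the range. AGL19 scored 286 for PI and 69.3 for AP3, and AGL71 scored 127 for PI and 133 for AP3. AGL16 scored 401 for PI and 56.6 for AP3, ANR1 scored 92.5 for PI and 38.6 for AP3, and the root gene AGL12 scored 107 for PI and 56.0 for AP3. AGL42 (181), the seed-coat gene TT16 (51.05), MAF1 (36.96), MAF3 and MAF4 (34.4 each) were listed for PI alone, and MAF2 (141) for AP3 alone. The equal scores lay downstream of MAF3 and upstream of MAF4, so the same peak may be counted for both genes. The floral repressor FLC scored 150.5 for PI and 258 for AP3, both 2000 to 3000 bp upstream. The same scores were listed inside AT5G10150, named above for CAL, so these peaks cannot be assigned to FLC alone. Of the 20 family members listed for both, 4 had a higher score for AP3 than for PI, namely FUL, AP3, AGL71 and FLC.

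**Figure D4:**
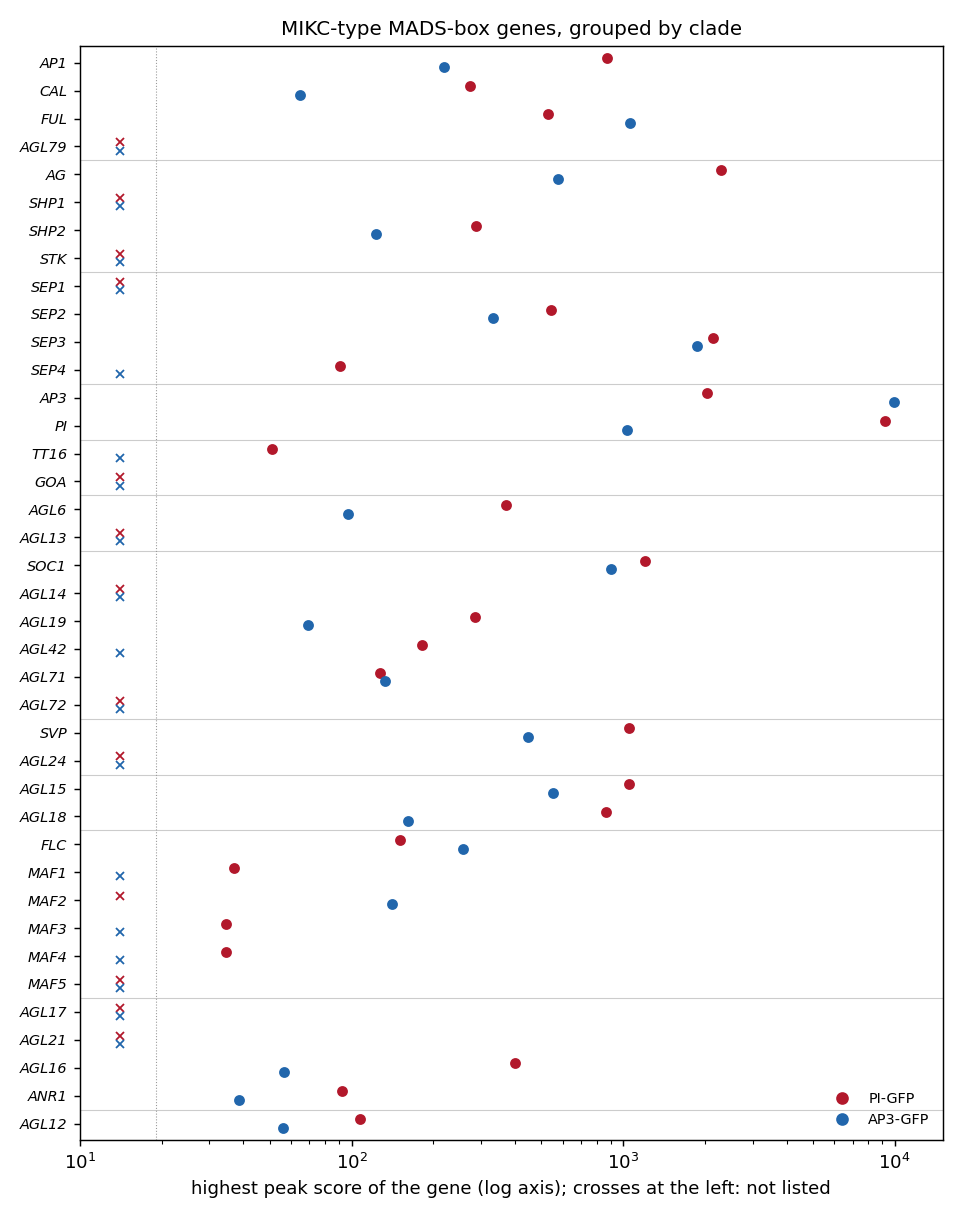
Highest peak score (x axis, log scale) of 39 MIKC-type MADS-box genes, ordered by clade from top to bottom, with PI-GFP and AP3-GFP points from 1 library each and crosses at the left for genes not listed. AP1, CAL and FUL lie between 64.7 and 1062, inside the range of the family.

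Regulators and partners of the clade were taken as a list of 30 genes, chosen with earlier results of these data known. Of these, 20 (66.7%) were listed for PI and 16 (53.3%) for AP3, where 8.69% and 7.26% of protein-coding genes were. With only 0 to 1000 bp upstream and inside the gene, the counts were 11 and 10, beside 4.54% and 3.84% of protein-coding genes. The 3 listed members of the AP1 clade stayed. The highest by PI score were the flowering repressor TEM1 (2314.5 for PI and 1100.0 for AP3), the bZIP gene FD (2133 for PI and 1041 for AP3), which activates AP1 together with the florigen FT, and the homeobox gene ATH1 (1085 for PI and 198 for AP3). Then came the boundary gene BOP1 (457 for PI and 190.1 for AP3) and the AP2-type genes TOE3 (434 for PI and 141 for AP3) and AP2 (426 for PI and 181 for AP3). The highest scores of TEM1 and ATH1 lay 0 to 1000 bp upstream, but those of FD 0 to 1000 bp downstream. FD also had a PI score of 1158 at 1000 to 2000 bp upstream. Its upstream AP3 scores were 707 at 2000 to 3000 bp and 566 at 1000 to 2000 bp. The PI peak of 1158 overlapped the AP3 peak of 707, although they were filed in different windows. The highest scores of BOP1 lay 2000 to 3000 bp upstream and those of AP2 1000 to 2000 bp upstream. At TOE3 the highest PI score lay 2000 to 3000 bp and the AP3 score 1000 to 2000 bp upstream. PI also scored 430.1 at 1000 to 2000 bp upstream of TOE3, and that peak overlapped the AP3 peak of 141. LFY, TFL1 and FT were chosen after their values were seen. LEAFY (LFY), the direct activator of AP1 and CAL, had PI scores of 60.6, 163 and 135 and AP3 scores of 30.5, 32.4 and 51.9 in the 3 upstream windows, from far to near. TFL1, a repressor of AP1 in the shoot tip, scored 70.3 for PI downstream of the gene and was not listed for AP3. FT was listed for neither.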

How the data were processed

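Peak lists and gene tables of the PI-GFP and AP3-GFP libraries were used. Per the submitters' processing notes, BWA 0.6.1 and SAMtools were used with genome build TAIR10. Which peak caller, threshold and gene models were applied is not given in the sources used here. The deposited values are peak scores, called Poisson in the file headers, and the largest score per gene window. From these, ranks, overlaps (at least 1 bp), distances between maxima and score ratios were computed with Python 3.11.15, pandas 2.3.3 and numpy 2.4.6. The code was tested on simulated peak lists. A window score was tied to the peak on the same chromosome with the identical score, and where several peaks had that score, to the one within 6000 bp of the gene's highest PI peak. Symbols, biotypes and gene order were read from RefSeq annotation (TAIR10.1), whose coordinates were not used. It names FUL as AGL8. It held 2490 of 2544 PI targets and 2101 of 2146 AP3 targets.

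The members and gene lists were chosen with earlier results of these data known. The genes named were all members, every listed MIKC-type gene, the 6 highest of the 30 regulators and partners by PI score, genes sharing a member's peak, and the 2 genes with the closest window pattern to each member. LFY, TFL1 and FT were named in addition after their values were seen, as were the unlisted SHP1, STK and SEP1. With 1 library per group, no test was made. No genome sequence was used, so motifs were not searched. Alternatives were narrower windows, removal of peaks below the list median, ranks by width, a reciprocal overlap of 50%, maxima at most 100 bp apart, pairing by nearest maximum, and percentile ranks.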

Additional observations from a re-analysis of the deposited data

How the results depend on the processing

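All results rest on 1 library per factor with unknown depth, so a weaker AP3 score or a missing peak may reflect depth. The 3 listed members stayed listed for PI and AP3 with narrower windows and without peaks below the list median. Of 8 PI peaks in member windows, 6 overlapped an AP3 peak, 4 with a reciprocal overlap of 50%, and 5 with maxima at most 100 bp apart or without peaks below the median. The 50% rule dropped the peaks inside CAL and 1000 to 2000 bp upstream of FUL. The limit of 100 bp dropped the peak 0 to 1000 bp upstream of FUL, and the median cut dropped the one inside CAL. The shares of all PI peaks under these stricter rules are not given here, so these counts cannot be set against the whole list. Pairing by nearest maximum changed the share of pairs at or below to 92.7% from 92.9% at AP1 and to 93.5% from 93.7% at the start of CAL, and left it at 2.63% inside FUL. With narrower windows, 11 of the 30 regulators and partners were listed for PI and 10 for AP3, beside 4.54% and 3.84% of protein-coding genes. Ranked by width, the highest peaks of AP1, CAL and FUL stood in the top 0.81%, 6.32% and 5.62% of PI peaks, and in the top 0.919%, 15.6% and 7.61% of AP3 peaks. By score these were 3.13%, 16.4% and 7.07% for PI and 12.1%, 45.9% and 0.984% for AP3. With percentile ranks, the share of pairs at or below was 66.1% at AP1, 89.7% at the start of CAL, 99.0% inside CAL, 29.7% inside FUL, 71.9% and 73.9% at the FUL upstream peaks, 99.9% at the unfiled peak and 99.3% at the COB peak. The cause was not tested. The planned search for CArG boxes was not run. No paired analysis was possible because each group has 1 library.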
